A study of Mus musculus with 21 samples.

Results

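The synaptonemal complex is the protein zipper that holds paired homologous chromosomes together during meiosis, and the HORMA domain proteins HORMAD1 and HORMAD2 mark the chromosome axes that have not yet paired. Transcripts of 9 genes that encode these proteins (*Sycp1*, *Sycp2*, *Sycp3*, *Syce1*, *Syce2*, *Syce3*, *Tex12*, *Hormad1* and *Hormad2*) were followed here through late mouse spermatogenesis. They were taken by symbol from a table of 24456 genes, and all 9 were found. The rule is a list of symbols and holds no measured value, although the list was drawn up with earlier results of these data known. RNA came from fractions purified from mouse testes: pachytene spermatocytes (3 wild-type and 3 *H2al2* KO libraries), round spermatids (3 and 3), condensing spermatids (3 and 3) and spermatozoa (2 wild-type libraries and 1 *H2al2* KO library). The KO removes H2A.L.2, a histone variant of spermatids that is incorporated while histones give way to transition proteins and protamines, and the controls are labelled *H2al2* WT. The study describes its wild-type round spermatid replicates as independent and biological. Age, strain and the animals behind each library are not given in the sources used here, so the p-values below measure the spread between these libraries, part of which may be technical.

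The 9 genes are protein-coding and lie apart on 8 chromosomes (GENCODE vM21, GRCm38). The axial genes are *Sycp2* (chr2:178345293-178407685, 45 merged exons), *Sycp3* (chr10:88459569-88473236, 8 exons), *Hormad1* (chr3:95559677-95587671, 16 exons) and *Hormad2* (chr11:4345814-4441105, 14 exons). *Sycp1*, of the transverse filament, has 34 exons (chr3:102818499-102936100). The central element genes *Syce1* (chr7:140777229-140787852), *Syce2* (chr8:84872111-84888221), *Syce3* (chr15:89390174-89410503) and *Tex12* (chr9:50556819-50561325) have 553 to 1968 bases of merged exons.

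Each homolog enters meiosis with its chromatin looped on a proteinaceous axis, built on cohesin and on the axial proteins SYCP2 and SYCP3, to which the HORMADs bind. On synapsis the axes become the lateral elements, transverse filaments of SYCP1 bridge them, and the central element proteins SYCE1, SYCE2, SYCE3 and TEX12 stabilize the bridge while the HORMADs are stripped off. In male mice the complex is complete at pachytene and is taken apart at the end of meiotic prophase, before the spermatids form, so that pachytene spermatocytes are the only fraction here in which the proteins are known to be assembled.

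Counts on genes ranged from 2772995 to 8201682 per library, with the spermatozoa at the low end, and levels are given below as CPM, the read count of a gene scaled to a common library total, after TMM scaling of all 21 libraries. The row taken for the deleted gene, *H2afb1*, had 201, 206 and 212 CPM in the wild-type round spermatid libraries and 25.4, 25.4 and 20.7 CPM in the KO ones. Round spermatids gave it a log2 fold change of -3.10 ± 0.10 (SE) and condensing ones -2.71 ± 0.17. Pachytene cells, with 14.5 to 40.5 CPM in wild type and 3.14 to 4.91 in KO, gave -2.75 ± 0.37 with an adjusted p of 0.484. Marker lists went with the labels only in part. All 7 elongating spermatid markers had counts in the pachytene libraries, where they summed to 1916 to 4823 CPM against 20432 to 27101 in round spermatids. Their sums overlapped between round and condensing spermatids. They were 23328 to 25890 and 24286 to 35590 CPM in wild type, and 20432 to 27101 and 22579 to 34499 CPM in KO. From round to condensing 2 of the 7 were called higher in wild type and 3 in KO. The 9 spermatocyte markers summed to 4133 to 5017 CPM in pachytene spermatocytes and to 2430 to 2726 in round spermatids. Wild-type round spermatid replicates 2 and 3 were closer to each other than any other pair of replicates: the mean chi-square per gene was 1.06 between them and 1.90 to 12.2 between the others. It was still above sampling noise (chi-square test p = 0.000697). This cannot show whether the 2 libraries come from different animals, because libraries of the same RNA can also differ by more than sampling noise. They were kept apart in the main tests and summed in an alternative setting.

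In wild-type pachytene spermatocytes the 9 transcripts covered a wide range of levels once gene length was taken into account. *Syce1* was the most abundant, with 258 ± 15.4 CPM per kb of exons (SD, n = 3) and no overlap with the next gene. *Sycp3* followed with 99.9 ± 35.9 CPM per kb. *Sycp2* (53.6 ± 43.5), *Hormad1* (53.5 ± 17.3), *Syce3* (49.0 ± 14.6), *Sycp1* (35.7 ± 20.6) and *Syce2* (24.8 ± 5.82) came next in CPM per kb, and in this order every neighbour from *Sycp3* down to *Syce2* had overlapping libraries. *Tex12*, whose protein binds SYCE2 in the central element, had only 7.89 ± 1.22 CPM per kb and *Hormad2* had 3.21 ± 0.401, each below the gene above it in all 3 libraries. The widest spread between replicates was that of *Sycp2*, 5.60-fold from the lowest to the highest library, and the narrowest that of *Syce1*, 1.13-fold. In round spermatids the order changed: *Syce2* (83.3 CPM per kb) and *Syce3* (76.4 CPM per kb) stood behind *Syce1* (257 CPM per kb), and *Sycp3* came only after them with 36.1 CPM per kb.

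**Figure D1:**
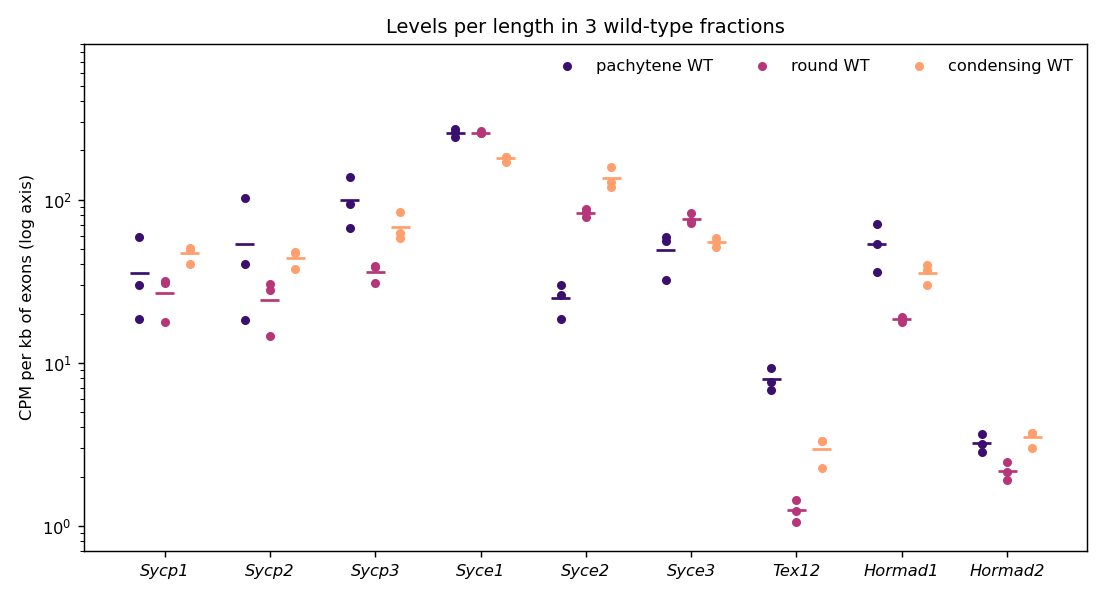
CPM per kb of exons (log axis) of the 9 genes in the 3 wild-type libraries each of pachytene spermatocytes, round spermatids and condensing spermatids; points are libraries and lines are means. *Syce1* lies above the other genes in all 3 fractions, *Syce2* climbs from 24.8 to 83.3 CPM per kb between pachytene and round, and *Tex12* and *Hormad2* form the bottom of the range.

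The axial genes fell on passage into the haploid fraction. *Sycp3*, whose protein is the main building block of the axis, had 119, 84.6 and 175 CPM in the wild-type pachytene libraries and 38.9, 49.5 and 48.5 CPM in the round spermatid libraries. All 3 round libraries were below all 3 pachytene libraries, and the log2 fold change was -1.45 ± 0.23 (SE, adjusted p = 9.4e-05). *Hormad1*, whose protein recruits the checkpoint kinase ATR to unpaired axes, went from 92.5, 62.5 and 122 CPM to 30.7, 33.0 and 32.2 CPM, with a log2 fold change of -1.51 ± 0.21 (adjusted p = 2.42e-05). The groups did not overlap, and the 3 round values were nearly the same. *Sycp2*, the partner of SYCP3 in the axis, had 241, 109 and 610 CPM in pachytene and 87.1, 181 and 167 CPM in round spermatids. Its log2 fold change of -1.13 ± 0.46 passed the test by little (adjusted p = 0.0425), the groups overlapped, and without wild-type pachytene replicate 3, the highest library, it was -0.25 with an adjusted p of 0.458. The call was also lost without round replicate 1 (adjusted p = 0.143) or 3 (adjusted p = 0.0656), with DESeq2's Wald test (adjusted p = 0.118) or size factors (0.0537), with at least 10 counts in every library (0.0686), with round replicates 2 and 3 summed (0.0579) and with the share of reads outside exons as a covariate (0.0714). Markers of other cells moved at this step too: all 6 Leydig markers fell (median log2 fold change -3.23, with sums of 78.7 to 162 CPM in wild-type pachytene and 11.1 to 14.8 CPM in round libraries), and 4 of 4 tested macrophage markers rose (median 2.61, with sums of 1.90 to 3.59 and 16.3 to 19.9 CPM). Their part in the changes of the 9 genes was not tested.

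*Sycp1*, the transverse filament gene, did not pass the test at this step in wild type. It had 106, 65.8 and 208 CPM in pachytene and 63.3, 112 and 109 CPM in round spermatids, and the groups overlapped (log2 fold change -0.40 ± 0.33, adjusted p = 0.304). Its direction also rested on pachytene replicate 3, without which the log2 fold change was 0.16, and without pachytene replicate 2 it was -0.71 with an adjusted p of 0.033.

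The central element genes moved in different directions. *Tex12* had 6.93, 9.36 and 7.74 CPM in pachytene (58, 79 and 53 counts) and 1.07, 1.25 and 1.45 CPM in round spermatids (8, 9 and 10 counts). This was the largest change among the 9 genes at this step in wild type, -2.64 ± 0.26 (adjusted p = 1.1e-06), and the groups were far apart. *Syce2*, whose protein assembles with TEX12, did the reverse: 50.9, 59.1 and 36.5 CPM became 153, 173 and 166 CPM, a log2 fold change of 1.77 ± 0.17 (adjusted p = 1.14e-06). *Syce2* therefore had 2.44 to 3.79 times the *Tex12* level in CPM per kb in the pachytene libraries and 59.0 to 73.5 times in the round spermatid libraries. *Syce1*, whose protein links SYCP1 to the central element, had 396, 381 and 352 CPM against 371, 371 and 384 CPM, with a log2 fold change of 0.02 ± 0.11 (adjusted p = 0.880). *Syce3*, which encodes a small protein at the base of the central element, rose by 0.66 ± 0.18 (adjusted p = 0.00567), from 31.0, 32.5 and 17.8 CPM to 41.1, 39.7 and 46.0 CPM with no overlap. When a trend on GC content and exon length was taken out of each library, a setting chosen after seeing the data, *Syce3* turned to -0.35 (adjusted p = 0.016) and *Syce1* to -0.40 (adjusted p = 0.00368), so the direction of *Syce3* depends on that choice.

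*Hormad2*, which like *Hormad1* encodes an axis protein, fell only slightly, by 0.54 ± 0.19 on the log2 scale (adjusted p = 0.019). Its libraries had 9.92, 8.65 and 7.74 CPM in pachytene and 6.71, 5.85 and 5.23 CPM in round spermatids, without overlap. DESeq2's Wald test gave an adjusted p of 0.0613, and without pachytene replicate 1, round replicate 2 or round replicate 3 the adjusted p was 0.0823, 0.0534 and 0.0746.

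**Figure D2:**
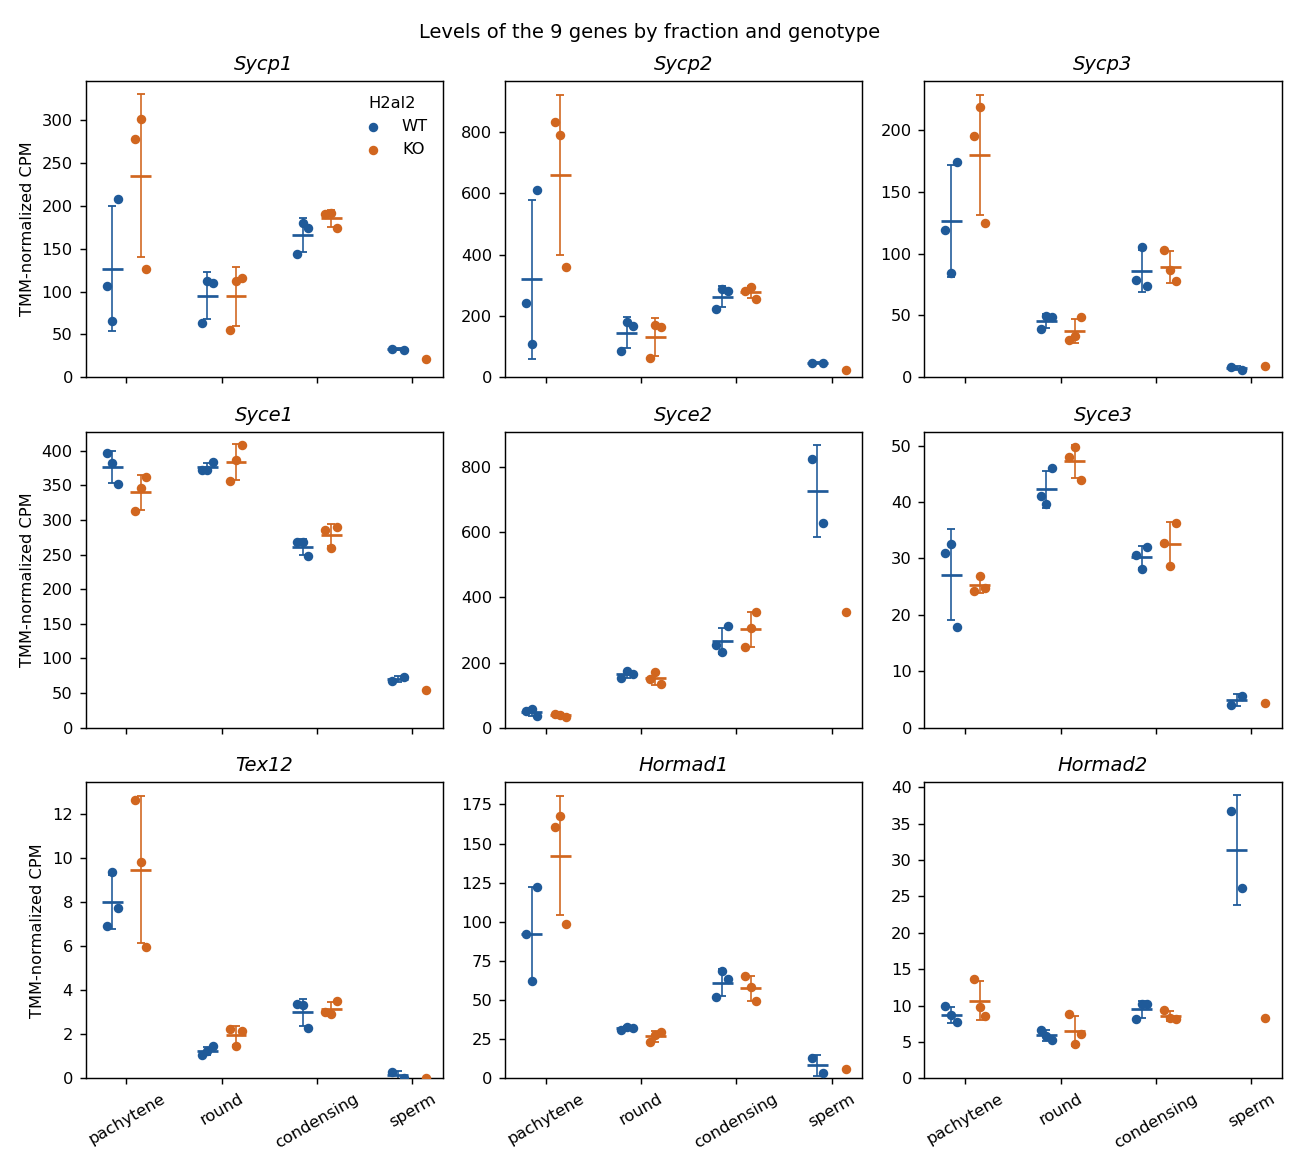
TMM-normalized CPM of each gene (own axis from 0) by fraction, with points for libraries, horizontal lines for means and bars for SD, wild type in blue and KO in orange; the KO spermatozoa are 1 library. *Sycp3*, *Tex12* and *Hormad1* are high in pachytene, low in round and intermediate in condensing spermatids, *Syce2* climbs at each step in wild type, and the pachytene libraries of *Sycp1* and *Sycp2* are widely scattered.

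In all, 7 of the 9 genes changed between wild-type pachytene spermatocytes and round spermatids, 2 higher and 5 lower, where 70.3% of all genes tested changed, 34.4% higher and 35.9% lower. The share of changed genes among the 9 is thus close to that of the transcriptome in the main test. The median log2 fold change of the 9 was -0.54, against -0.02 over all 14011 genes tested. The ranges of 6 of the 9 did not overlap between the fractions, as for 73.2% of all genes. Over the alternative settings 5 to 9 of the 9 genes were called. With the GC and length trend removed 9 were called, 1 higher and 8 lower. In that setting 10145 of 14011 genes were called, 4823 higher and 5322 lower.

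The promoters of 3 of the genes that fell, *Hormad1*, *Tex12* and *Sycp3*, carry on the strand of the gene the letters GCGGGAA, a word bound by E2F6, a repressor known to silence meiotic genes in somatic cells. They are shown because these 3 genes had the largest falls from wild-type pachytene to round spermatids, and were picked with those values in view. The sequences are from RefSeq (GRCm38.p6), 5′ to 3′ on the strand of the gene, run up to 250 bases before the RefSeq transcript start, leave out bases inside the GENCODE gene model, and have the word in capitals. *Hormad1* is on the plus strand (chr3:95559427-95559676), *Tex12* on the minus strand (chr9:50561326-50561518) and *Sycp3* on the plus strand (chr10:88459337-88459568).
Hormad1: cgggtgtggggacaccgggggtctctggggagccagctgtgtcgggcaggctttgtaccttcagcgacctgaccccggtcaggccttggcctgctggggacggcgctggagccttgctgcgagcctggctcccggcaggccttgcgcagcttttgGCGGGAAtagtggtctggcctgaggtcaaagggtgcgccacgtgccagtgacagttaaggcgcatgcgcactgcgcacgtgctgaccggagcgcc
Tex12: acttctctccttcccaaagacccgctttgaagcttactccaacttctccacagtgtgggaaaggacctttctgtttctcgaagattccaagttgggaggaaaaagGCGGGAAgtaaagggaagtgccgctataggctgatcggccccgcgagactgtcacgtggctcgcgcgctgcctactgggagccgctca
Sycp3: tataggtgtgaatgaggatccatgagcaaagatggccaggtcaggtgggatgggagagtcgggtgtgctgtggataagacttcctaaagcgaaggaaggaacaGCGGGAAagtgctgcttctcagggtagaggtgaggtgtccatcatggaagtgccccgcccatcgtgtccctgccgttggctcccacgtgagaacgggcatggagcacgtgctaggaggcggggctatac
The word begins 95 bases before the RefSeq start of *Hormad1*, 145 bases before that of *Tex12* and 147 bases before that of *Sycp3*. In windows of 300 bases (250 before and 50 after the start), searched on both strands, it was found for 4 of the 9 genes and for 5.29% of the 27025 genes in the table, or 4.6% of its 32851 windows. The fourth gene is *Syce2*, where it lies 34 bases before a second start, and *Syce2* rose. The word CNCCTCAG, bound by the meiotic initiators STRA8 and MEIOSIN, was found for *Sycp1*, *Syce2*, *Tex12* and *Hormad2* and for 9.12% of genes. In *Tex12* it ends on the first transcribed base, and in *Syce2* it shares letters with GCGGGAA. The core word of MYB factors, AACTG, was found for 5 of the 9 and for 48.2% of genes, GTTGCCA, a word of RFX factors, for *Syce3* and for 5.02%, and TGACGTNA, the cAMP response word, for none of the 9 and for 3.36%.

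From round to condensing spermatids several of these transcripts were found at higher levels again. *Hormad1* had 51.8, 68.4 and 63.6 CPM in the wild-type condensing libraries, all above the round libraries (log2 fold change 0.96 ± 0.21, adjusted p = 0.0022). *Sycp3* had 78.7, 106 and 73.9 CPM (0.94 ± 0.23, adjusted p = 0.00486), and *Tex12* had 3.38, 3.34 and 2.28 CPM (1.28 ± 0.30, adjusted p = 0.00322). All 3 genes were without overlap between round and condensing. *Hormad2* rose by 0.70 ± 0.19 (adjusted p = 0.00803) to 8.14, 10.2 and 10.2 CPM, and *Syce2* by 0.73 ± 0.17 (adjusted p = 0.00294) to 253, 234 and 312 CPM. *Syce1* fell by 0.50 ± 0.11 (adjusted p = 0.0022), to 268, 268 and 248 CPM. *Sycp1* (144, 180 and 174 CPM, adjusted p = 0.053), *Sycp2* (223, 286 and 280 CPM, adjusted p = 0.125) and *Syce3* (30.6, 28.2 and 32.0 CPM, adjusted p = 0.0537) did not pass the test, although none of the 3 overlapped with the round libraries. *Syce3* was called lower with DESeq2's Wald test (adjusted p = 0.0353), DESeq2 size factors (0.0349), no filter (0.0362) and the fit on 18 libraries (0.0163), and *Sycp1* was called higher with library size only (0.0428) and no filter (0.0226).

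Thus 6 of the 9 genes changed from round to condensing spermatids in wild type, 5 higher and 1 lower, where 50.0% of all genes tested changed, 28.3% higher and 21.8% lower. The round and condensing ranges of all 9 were apart, as for 61.6% of all genes. Between condensing and pachytene cells 4 of the 9 changed, where 73.4% of genes did (37.7% higher, 35.7% lower): *Syce2* was higher (2.50 ± 0.18), and *Tex12* (-1.35 ± 0.23), *Hormad1* (-0.54 ± 0.20) and *Syce1* (-0.48 ± 0.11) were lower in condensing spermatids. The *Hormad1* libraries overlapped, with 51.8 to 68.4 CPM in condensing and 62.5 to 122 CPM in pachytene cells. The call of *Hormad1* was lost with a minimum of 10 counts in every library (adjusted p = 0.116), without condensing replicate 1 (0.102) and without pachytene replicate 3 (0.101). *Sycp3* passed without condensing replicate 2 (-0.72, adjusted p = 0.0263) or pachytene replicate 2 (-0.74, adjusted p = 0.0035), and *Sycp1* without pachytene replicate 3 (0.98, adjusted p = 0.0014).

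**Figure D3:**
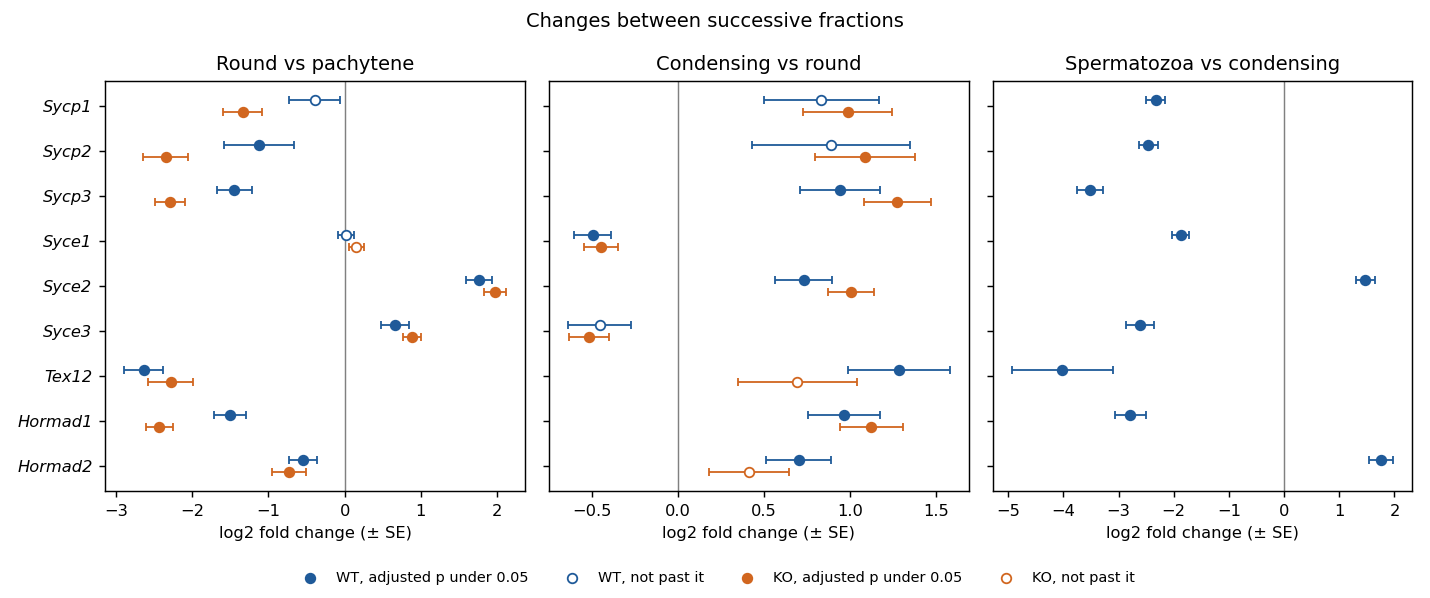
Log2 fold change with SE of the 9 genes for round against pachytene, condensing against round, and spermatozoa against condensing, wild type in blue and KO in orange; filled points have an adjusted p under 0.05, and the last step has wild type only. *Syce2* lies to the right of 0 in all 3 panels, and *Sycp3* and *Hormad1* lie to the left, then to the right, then to the left.

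Of the 9 spermatocyte markers 2 rose and 4 fell from round to condensing spermatids, with a median log2 fold change of -0.45. The 2 that rose, *Pou5f2* and *Piwil1*, a transcription factor gene and the gene of a piRNA-binding protein, were picked after their values were seen. They had 87.7 and 1150 CPM on average in wild-type pachytene cells, 3.83% and 5.52% of this at the round stage, and 28.2% and 16.8% at the condensing stage. Both fell and then rose (log2 fold changes -4.68 ± 0.21 and 2.91 ± 0.22 for *Pou5f2*, -4.16 ± 0.17 and 1.63 ± 0.15 for *Piwil1*). *Sycp3* and *Hormad1* were at 36.1% and 34.6% of their pachytene level in round spermatids, and at 68.1% and 66.3% in condensing spermatids. The sum of the 9 spermatocyte markers did not rise between these fractions (2430 to 2726 CPM in round, 1528 to 2193 CPM in condensing, wild type). Sums of Sertoli and Leydig markers were higher: the 7 Sertoli markers summed to 26.1 to 39.98 CPM in wild-type round and 319 to 410 CPM in condensing libraries, and the 6 Leydig markers to 11.1 to 14.8 and 146 to 230 CPM. Sums of the 4 peritubular myoid markers overlapped (326 to 333 and 302 to 406 CPM), although 3 of the 4 were called higher. The 5 macrophage markers summed to 16.3 to 19.9 and 20.5 to 25.2 CPM, and 0 of the 4 tested were called. The 8 spermatogonium markers summed to 46.0 to 49.9 and 72.5 to 80.5 CPM. The part of these cells in the condensing levels of the 9 genes was not tested. In such bulk fractions, fewer cells of a type and less RNA per cell cannot be told apart.

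**Figure D4:**
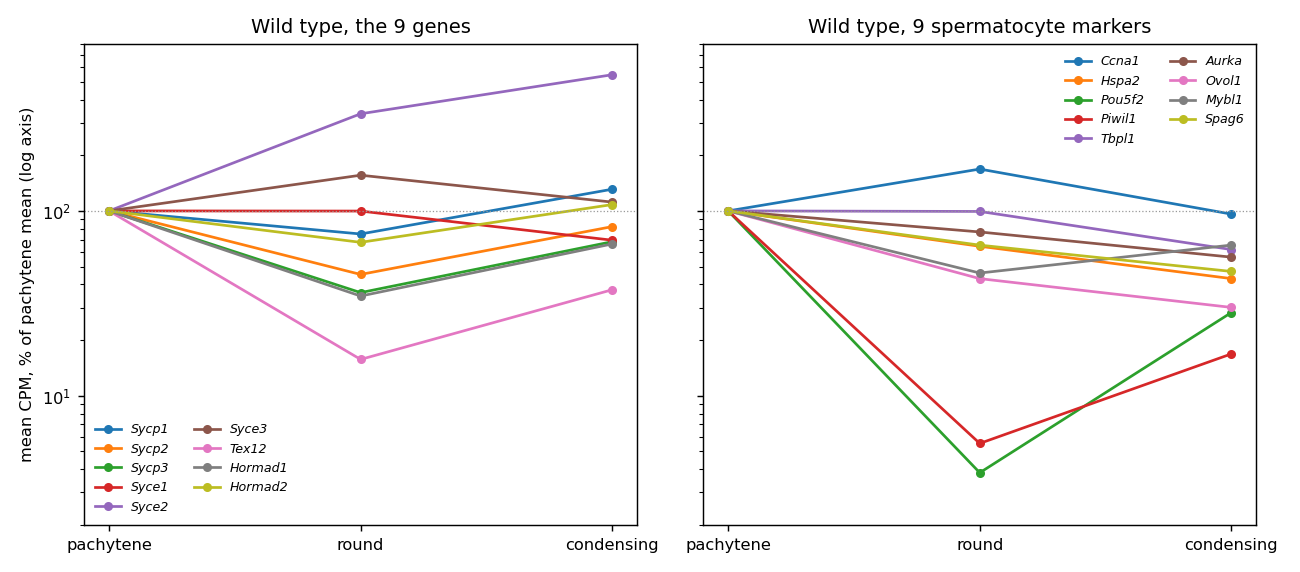
Mean wild-type CPM as a percent of the pachytene mean (log axis), left for the 9 genes and right for the 9 spermatocyte markers, with 1 line for each gene. In round spermatids *Tex12* is the lowest of the 9 genes at 15.7%, *Piwil1* and *Pou5f2* are lower still, and all 3 are higher in condensing spermatids. *Piwil1* and *Pou5f2* are the 2 of the 9 markers called higher from round to condensing, while 4 were called lower.

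In spermatozoa most of the transcripts were scarce. Compared with condensing spermatids, all 9 genes changed in wild type, where 72.4% of all genes tested changed (36.6% higher, 35.8% lower), and their ranges were apart, as for 81.3% of all genes. In this step 7 were lower, with log2 fold changes from -1.87 ± 0.16 for *Syce1* to -3.52 ± 0.24 for *Sycp3* and, for *Tex12*, 1 count in 2 libraries. The *Tex12* level in spermatozoa was 0.0528 times that in condensing spermatids (exact 95% interval 0.00131 to 0.306, counting error only). *Syce2* and *Hormad2* went up. *Syce2* had 826 and 628 CPM in the 2 wild-type spermatozoa libraries (1.48 ± 0.17, adjusted p = 7.44e-08) and was the highest of the 9 there at 369 CPM per kb, against 48.0 CPM per kb for *Syce1*. *Hormad2* had 36.8 and 26.1 CPM, above all condensing libraries (1.76 ± 0.22, adjusted p = 3.36e-07), while *Hormad1* had 13.2 and 3.53 CPM. All 5 macrophage markers were also higher in wild-type spermatozoa than in condensing spermatids (median log2 fold change 3.78, sums of 247 CPM in both libraries against 20.5 to 25.2 CPM), and the part of such cells in the levels of the 9 genes was not tested.

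The comparison of *H2al2* KO with wild type within each fraction asks whether loss of H2A.L.2 touches these transcripts. None of the 9 genes passed edgeR's quasi-likelihood test in any of the 3 fractions. In pachytene cells *H2afb1*, the row of the deleted gene, did not pass either. Its KO mean there was 14.0% of the wild-type mean without overlap, so the test can miss large changes in that fraction. In pachytene spermatocytes 0 of 12236 genes were called (0%, with 815 at an unadjusted p under 0.05 and 2 called by DESeq2's Wald test), 2 of 12804 (0.0156%) at the round stage and 1 of 13734 (0.00728%) at the condensing stage. At an unadjusted p under 0.05 there were 1, 0 and 0 of the 9 genes, and DESeq2 also called none of them. In round spermatids the log2 fold changes of the 9 lay between -0.27 ± 0.17 (*Sycp3*) and 0.64 ± 0.34 (*Tex12*), and in condensing spermatids between -0.15 ± 0.18 (*Hormad2*) and 0.17 ± 0.15 (*Syce2*). The ranges of the genotypes overlapped for 7 of the 9 genes in round spermatids, where 9.89% of genes tested did not overlap, and for all 9 in condensing spermatids (12.1% of genes without overlap). The 2 without overlap in round spermatids were *Tex12* (1.45 CPM at most in wild type, 1.47 at least in KO) and *Hormad1* (30.7 at least in wild type, 29.4 at most in KO).

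The pachytene libraries stood out for their scatter. *Sycp2* had 241, 109 and 610 CPM in wild type and 832, 789 and 360 CPM in KO, *Sycp1* had 106, 65.8 and 208 CPM against 279, 301 and 127 CPM, and *Sycp3* had 119, 84.6 and 175 CPM against 196, 219 and 125 CPM. The KO means of *Sycp2*, *Sycp1*, *Hormad1* and *Sycp3* were higher, with log2 fold changes of 1.07 ± 0.58, 0.94 ± 0.46, 0.68 ± 0.29 and 0.56 ± 0.31 and an adjusted p of 0.656 for each, and all 9 genes overlapped between genotypes, where 11.4% of genes tested did not. The same 3 libraries, wild-type replicate 3 and KO replicates 1 and 2, were the highest for all 4 genes. They were also those with the most reads outside annotated exons, 42.4% to 47.7% of all counted reads, against 30.9% to 37.4% in the other 3 libraries. Within the libraries under 40% outside exons, *Sycp2* averaged 175 CPM in 2 wild-type libraries and 360 CPM in 1 KO library, and within those at 40% or more it had 610 CPM in 1 wild-type library and 811 CPM on average in 2 KO libraries. Across the 9 genes the KO level was higher for 4 of 9 in the first class and 8 of 9 in the second, with too few libraries for a test. With the share of reads outside exons as a covariate, a setting chosen after seeing the data, the log2 fold changes became 0.02 ± 0.31 for *Sycp2*, -0.00398 ± 0.26 for *Sycp1*, 0.08 ± 0.21 for *Hormad1* and -0.0454 ± 0.21 for *Sycp3*. The share was 47.7%, 43.9% and 37.4% in KO and 32.0%, 30.9% and 42.4% in wild type. It thus partly followed the genotype, and this fit cannot tell them apart. In wild type, transcripts of later cells were lowest in replicate 3. The 7 elongating spermatid markers summed to 4823, 4636 and 1916 CPM in wild-type replicates 1, 2 and 3, and *H2afb1* had 40.5, 36.4 and 14.5 CPM. This split was not seen in KO, where the markers summed to 2482, 2701 and 2516 CPM, with replicate 3 between replicates 1 and 2. *H2afb1* had 4.78, 4.91 and 3.14 CPM in KO. Leydig markers summed to 78.7, 149 and 162 CPM in wild type and 105, 50.8 and 25.3 CPM in KO. Their part in the scatter was not tested. Without wild-type replicate 3, *Sycp1* (1.56, adjusted p = 0.0462) and *Sycp2* (2.02, adjusted p = 0.0446) passed the test, as did 243 genes in all, against 0 with it.

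**Figure D5:**
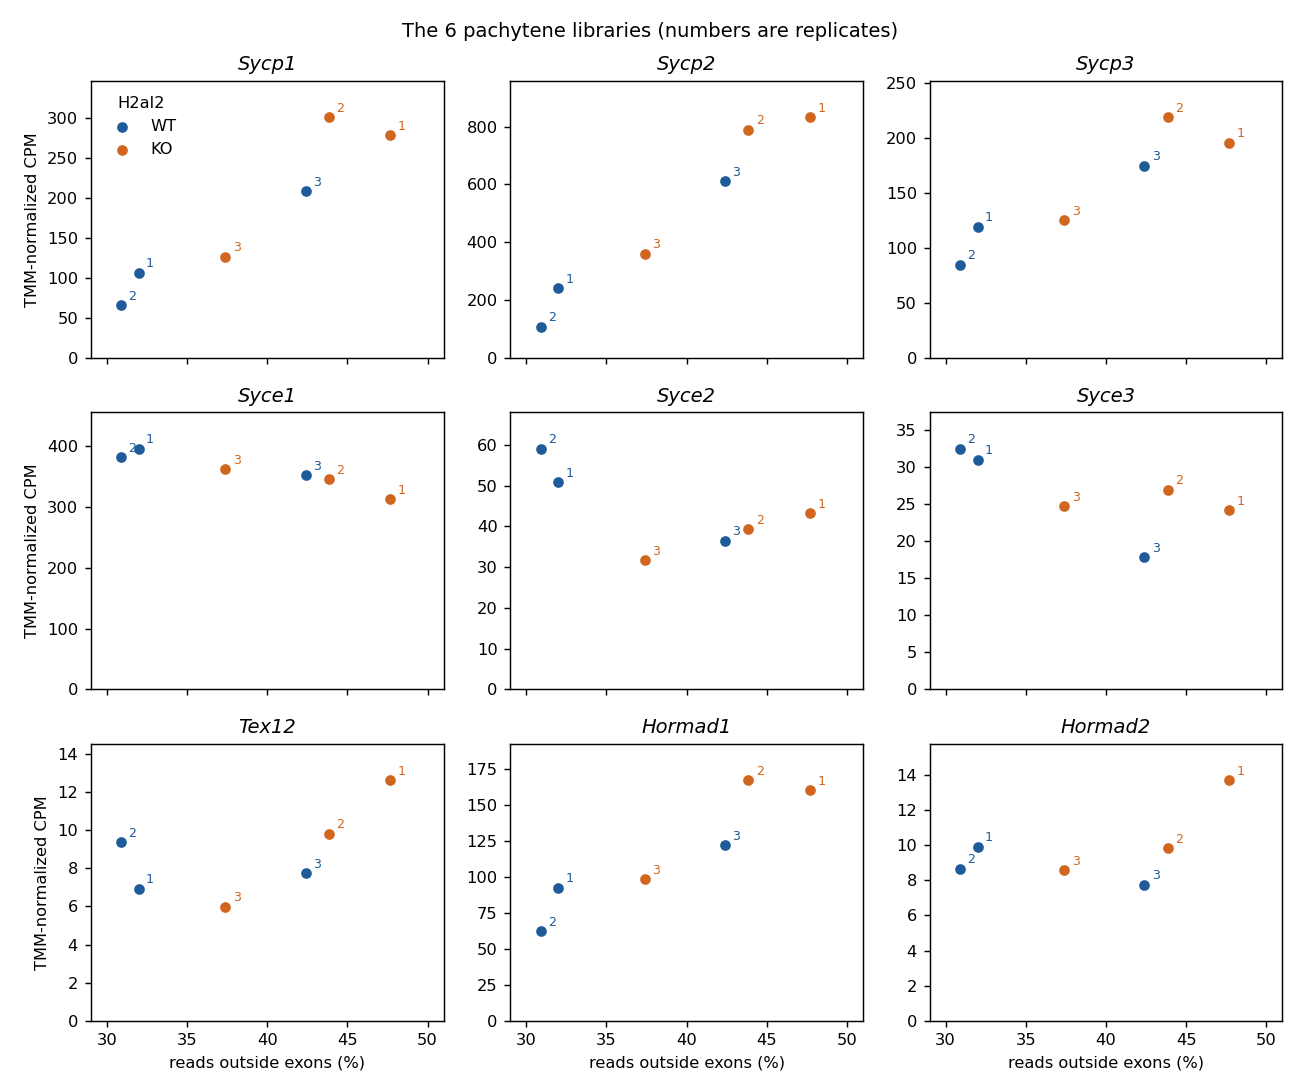
TMM-normalized CPM of the 9 genes (own axis from 0) in the 6 pachytene libraries against the percent of counted reads outside annotated exons, wild type in blue and KO in orange, numbered by replicate. For *Sycp1*, *Sycp2*, *Sycp3* and *Hormad1* the 3 libraries at 42.4% or more are above the other 3, while *Syce1* stays between 312 and 396 CPM and is lowest in the library with the most such reads.

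These 4 genes, with *Tex12*, also share a low GC content in their longest transcript, 34.3% to 36.4%, against 43.9% to 52.9% for *Hormad2*, *Syce1*, *Syce2* and *Syce3* and a median of 48.7% over genes with a value. In wild-type pachytene cells *Tex12* did not split as these 4 genes did. It had 9.36 CPM in replicate 2 (30.9% outside exons) and 7.74 CPM in replicate 3 (42.4%). In KO it had 12.6 and 9.82 CPM in replicates 1 and 2 and 5.99 CPM in replicate 3. A scatter like that of *Sycp2* in pachytene cells was seen in round spermatids. Replicate 1 there had the fewest reads outside exons in both genotypes (30.6% in wild type, 30.5% in KO). It also had the least *Sycp2*: 87.1 CPM against 181 and 167 in wild type, and 61.2 CPM against 170 and 164 in KO. In condensing spermatids this held in KO, where replicate 3 had the smallest share (35.2%) and the least *Sycp2* (255 CPM). It did not hold in wild type, where replicate 2 had the smallest share (35.3%) but the most *Sycp2* (286 CPM) and *Sycp3* (106 CPM). The part of these library properties in the levels was not tested further.

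The stage changes within the KO had the same sign as in wild type for all 9 genes at both steps, although the sign of *Syce1* from pachytene to round turns with library size scaling alone in both genotypes. From pachytene to round spermatids 8 of the 9 changed, 2 higher and 6 lower (74.9% of all genes tested changed, 36.5% higher and 38.4% lower), with -2.43 ± 0.18 for *Hormad1*, -2.35 ± 0.30 for *Sycp2*, -2.29 ± 0.20 for *Sycp3*, -2.28 ± 0.30 for *Tex12*, -1.34 ± 0.26 for *Sycp1* and -0.73 ± 0.23 for *Hormad2*. *Syce2* rose by 1.97 ± 0.14 and *Syce3* by 0.88 ± 0.12, the latter again reversed to -0.41 without the GC and length trend, and *Syce1* did not pass (0.15 ± 0.10, adjusted p = 0.168). *Syce1* was called higher with at least 10 counts in every library and lower without the GC and length trend, so its call depends on the setting. The call of *Hormad2* was lost without KO pachytene replicate 1 (adjusted p = 0.0555). With the share of reads outside exons as a covariate 6 of the 9 passed, 2 higher and 4 lower. In that setting 9448 of all 13877 genes tested passed, 4655 higher and 4793 lower. The median log2 fold change of the 9 moved from -1.34 to -0.60. *Sycp1* (-0.38, adjusted p = 0.14) and *Hormad2* (adjusted p = 0.11) then did not pass, and *Sycp2* was at -1.26. From round to condensing spermatids 7 of the 9 changed (54.2% of all genes tested, 29.7% higher and 24.5% lower), 5 higher and 2 lower: *Sycp3* rose by 1.27 ± 0.20, *Hormad1* by 1.12 ± 0.18, *Sycp2* by 1.09 ± 0.29, *Syce2* by 1.01 ± 0.13 and *Sycp1* by 0.98 ± 0.26, while *Syce3* fell by 0.52 ± 0.12 and *Syce1* by 0.45 ± 0.10. *Tex12* (0.69 ± 0.35) and *Hormad2* (0.41 ± 0.23) did not pass, the latter with an adjusted p of 0.0258 without KO round replicate 1. With DESeq2's Wald test *Sycp1* (adjusted p = 0.0532) and *Sycp2* (adjusted p = 0.0624) did not pass either. From pachytene to condensing spermatids 7 of the 9 changed in the KO, where 78.1% of genes did. Among them the calls of *Syce1* (adjusted p = 0.0692 without condensing replicate 2) and *Syce3* (0.0658 without condensing replicate 3) rested on single libraries, and *Sycp1* passed without pachytene replicate 3 (-0.67, adjusted p = 0.0059).

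Whether a stage change differed between the genotypes was tested as an interaction over 18 libraries, and edgeR called 0 of 14479 genes (0%) for either step, with 1050 and 407 genes at an unadjusted p under 0.05 and 1 and 0 called by DESeq2's Wald test. The steeper fall from pachytene to round in the KO was -0.93 ± 0.31 for *Hormad1* and -0.85 ± 0.35 for *Sycp3* on the log2 scale, the 2 of the 9 genes with an unadjusted p under 0.05, and the adjusted p was 0.676 for both. For *Sycp2* the difference was -1.22 ± 0.63 and for *Sycp1* -0.95 ± 0.50. These rest on the same pachytene libraries as above. From round to condensing the differences lay between -0.60 ± 0.48 (*Tex12*) and 0.32 ± 0.35 (*Sycp3*).

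The single KO library of spermatozoa allows no test. *Hormad2* had 8.31 CPM in it, against 36.8 and 26.1 CPM in wild type. *Syce2* had 355 CPM against 826 and 628, and *Sycp2* had 22.8 CPM against 47.9 and 45.9. These 3 of 8 genes with a fold were more than 2-fold lower than the wild-type mean, as were 19.9% of the 15319 genes with at least 1 CPM on average. *Sycp2* (-1.04) and *Syce2* (-1.03) passed this limit narrowly, and with DESeq2 size factors 1 of the 8 genes did. None of the 8 was 2-fold higher, against 17.4% of the 15319 genes. *Tex12* had 0 counts in the KO library, which allows up to 0.91 CPM. The KO library also differed in its markers: the 7 elongating spermatid markers summed to 10164 CPM against 27711 and 31264 in wild type, the 5 macrophage markers to 1087 CPM against 247 in both, and 45.9% of reads lay outside exons against 32.1% and 32.7%. The part of this in the levels of the 3 genes was not tested.

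Genes that work with the synaptonemal complex moved in both directions from wild-type pachytene to round spermatids, a step at which 35.9% of all genes tested fell and 34.4% rose. Of the 8 telomere attachment genes, which tie chromosome ends to the nuclear envelope in prophase, all fell, with a median log2 fold change of -1.14. Among 9 tested genes of the HORMAD pathway 7 fell and 1 rose (median -1.25): *Topbp1*, an activator of ATR, fell by 2.06 ± 0.14 and *Trip13*, the ATPase that removes HORMADs from synapsed axes, by 0.63 ± 0.20, while *Brca1* rose by 1.35 ± 0.18. Of 17 synapsis and recombination partners 10 fell and 3 rose (median -0.93). *Mlh3*, of the crossover endonuclease, fell by 2.51 ± 0.20, *4930447C04Rik*, which encodes the central element protein SIX6OS1, had -0.66 ± 0.38 (adjusted p = 0.135), and *Tex11* rose by 0.99 ± 0.24. Of 5 axis cohesin genes 3 rose and 1 fell in wild type (2 and 1 in KO), with 1.90 ± 0.18 for the meiotic kleisin gene *Rec8* and -0.44 ± 0.13 for *Stag3*. Of 8 kinase and cyclin genes of complex disassembly and the meiotic divisions 5 rose, among them *Plk1* (1.18 ± 0.18) and *Ccnb1* (1.48 ± 0.18), and 3 fell. From round to condensing spermatids in wild type 28.3% of all genes tested rose and 21.8% fell. At this step 3 of the 8 telomere attachment genes rose and 1 fell. Of the 17 partners 6 rose and 2 fell, and of the 9 tested HORMAD pathway genes 2 rose and 1 fell. By contrast, of the 5 axis cohesin genes 0 rose and 3 fell (median -0.54). Of the 8 kinase and cyclin genes 1 rose and 5 fell (median -0.64). No gene of these 5 lists was called between KO and wild type by edgeR in any of the 3 fractions.

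Over the 18 libraries of the 3 fractions, the levels of *Sycp3* and *Hormad1* ran closest together among the 9 genes (Pearson r = 0.98 of log2 CPM), followed by *Sycp1* and *Sycp2* (r = 0.94). *Hormad1* had 0.44 to 0.63 times the *Sycp3* level per kb in all 18 libraries, although both moved more than 2-fold between fractions. *Syce3* ran opposite to *Sycp3* (r = -0.90). These correlations join libraries of different stages and share their depth and composition, and are given as a description. Outside the 9 genes the nearest match over these libraries was *Zfp518a* for *Sycp2* (r = 0.99), *Qk* for *Sycp3* (r = 0.99), *Prpf4b* for *Hormad1* (r = 0.99), *Arid4b* for *Sycp1* (r = 0.96), *Lmln* for *Tex12* (r = 0.97), *Pim1* for *Syce2* (r = 0.997), *Ccdc180* for *Syce1* (r = 0.97), *R3hcc1* for *Syce3* (r = 0.96) and *6030458C11Rik* for *Hormad2* (r = 0.91).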

How the data were processed

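RNA of 21 libraries from purified mouse spermatogenic fractions was sequenced after ribosomal depletion with a stranded kit. The authors aligned the reads to mm10 with STAR (version 2.7.11b per the labels) and counted reads in exons with HTSeq; per the labels and the methods, the deposited values are raw read counts per gene, without normalization or pooling. The methods state reverse-strand counting within exons and no multiply aligned reads, which lowers genes with near-identical copies. *Sycp3* shares 660 exonic bases with *Chpt1* on the opposite strand. Each file had 24456 genes and 5 rows that name no gene (34.6% to 57.7% of counted reads), and these rows entered neither the library sizes nor the tests.

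Counts were tested with edgeR 4.0.16 (R 4.3.3): TMM, filterByExpr, the quasi-likelihood test and Benjamini-Hochberg adjustment over all genes, threshold 0.05. KO was compared with wild type within a fraction on 6 libraries, stages within a genotype on 9, spermatozoa with condensing spermatids on 5, and interactions on 18, in 12 comparisons. The SE is the log2 fold change divided by the square root of F. Alternatives were the DESeq2 1.42.0 Wald test, DESeq2 size factors, library size only, a minimum of 10 counts per gene and library, no filter, no mitochondrial genes, a replicate block, 1 fit on 18 libraries, 2 close replicates summed, and each library left out; a GC and length trend and the share of reads outside exons were added after seeing the data. The tests were also run on simulated counts with the same spread for all genes and changes only in well-counted genes. KO against wild type in pachytene cells was not simulated. This does not check the tests for widely scattered libraries or low counts. Lengths, GC and positions came from GENCODE vM21, matched by symbol for 23378 genes, and promoters from RefSeq. Likeness is Pearson's r of log2(CPM + 0.5). The 9 genes and the lists were chosen with earlier results of these data known. All 9 genes are named, partner genes as examples of their list, and *Pou5f2* and *Piwil1* as markers chosen after their values were seen. The labels do not say whether replicate numbers pair the libraries, and the main tests did not pair them. Intervals and the limit for a count of 0 (3 counts) cover counting error only. The gene of H2A.L.2 was read from *H2afb1*, an older symbol that the annotation gives for it and for an X-linked gene which has a row of its own under another symbol. Of the partner lists, *Ankrd31*, *Sycp2l* and *Rnf212* matched no row and were not analysed.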

Additional observations from a re-analysis of the deposited data

How the results depend on the processing

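The number of the 9 genes called stayed within 1.5 times its value, or at 0, in 203 of 205 repeats. The exceptions were wild-type condensing against pachytene cells with at least 10 counts in every library (2 against 4) and KO against wild type in pachytene spermatocytes, where leaving out 1 library gave 0 to 2 genes, 2 without wild-type replicate 3. Among the 73 changes of a gene in a comparison that the text treats, 1135 of 1200 repeats kept sign and call, 26 lost the call, 25 gained it and 14 changed sign, however small the value. Over all 108 pairs of gene and comparison the sign changed in 54 of 1838 repeats; the other 40 were of changes that had not passed the test. A called change turned in 3, all of *Syce3* with the GC and length trend removed. From wild-type pachytene to round, *Syce1* was -0.167 with library size only, -0.0132 without a filter and -0.395 without the GC and length trend, and with 1 library left out it lay between -0.0286 and 0.0487; *Sycp1* lay between -0.714 and 0.163 with 1 library left out; *Syce3* was -0.347 without the trend. In the KO, *Syce1* was -0.00115 with library size only and -0.338 without the trend, and *Syce3* was -0.411 (round against pachytene) and -0.68 (condensing against pachytene) without it; *Sycp1* in condensing against pachytene was -0.0327 in wild type without the trend and 0.223 in the KO with the covariate below. With reads outside exons as a covariate, KO against wild type in pachytene was -0.00398 for *Sycp1* and -0.0454 for *Sycp3*. In spermatozoa 1 gene in place of 3 was 2-fold lower in KO with DESeq2 size factors; with 1 wild-type library left out the number was 2 to 4, *Syce3* lay between -0.39 and 0.0651 and *Hormad1* between -1.18 and 0.729. The cause of these shifts was not tested. With the replicate block, *Sycp1* from round to condensing in wild type passed (0.862, adjusted p = 0.0234), none of the other calls of the 9 genes changed, and over all genes KO against wild type gave 61 in place of 2 in round and 26 in place of 1 in condensing spermatids. Correlations between the deviations of same-numbered libraries ran from -0.237 to 0.275, and passed 0.1 for every number in 0 of 15 pairs of groups. With so few libraries in a group this cannot exclude a pairing, which the labels do not state. The order of levels per kb held for all 9 genes in each group with DESeq2 size factors and for 6 to 9 of 9 with the longest transcript. Low counts limit *Tex12*, with 8 to 16 counts in round spermatids.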
